A study of Mus musculus with 16 samples.

Results

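Peaks of open chromatin were examined at the genes of 8 Ets transcription factors, Fli1, Erg, Etv6, Elf1, Ets1, Ets2, Gabpa and Elk3, in hematopoietic stem and progenitor cells (HSPCs) of the mouse. The peaks of 16 ATAC-seq lists were merged wherever they shared at least 1 bp, which gave 296215 regions, and the 456 regions within a gene body or 20 kb either side of it were taken as the members' regions. Etv6 had 131 of them, Erg 94, Fli1 65, Elf1 56, Elk3 44, Ets1 41, Ets2 14 and Gabpa 11. Each region is named by the distance of its leading summit from the start of the gene's principal transcript, positive in the direction of transcription (Fli1 -14.91 kb lies upstream of that start).

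ATAC-seq reads out DNA that a transposase can enter. The HSPCs were lineage-negative, Sca1-positive and c-Kit-positive bone marrow cells, frozen after the sort, and 50000 thawed viable cells were processed for each library, with 2 mice of a genotype pooled. The question of the study was what the loss of p300, a histone acetyltransferase and coactivator encoded by Ep300, does in cells that lack Tet2, an enzyme that oxidizes methylated cytosine. There were 4 genotypes with 4 libraries each. WT mice were Ep300 fl/fl, P300KO mice were Mx1-Cre;Ep300 fl/fl, TET2KO mice were Ep300 fl/fl;Tet2-/-, and P300KO_TET2KO mice were Mx1-Cre;Ep300 fl/fl;Tet2-/-. All carried the floxed Ep300 allele on a C57BL/6 background and were given 3 doses of poly(I:C) between 6 and 8 weeks of age, so that the intact controls had the interferon stimulus too. Mx1-Cre responds to interferon in many cell types and is not confined to HSPCs, whereas the Tet2 alleles were null in the germ line. P300KO and P300KO_TET2KO mice alone carried Mx1-Cre, so its own effect cannot be told apart from that of p300 loss. By the study's methods, experiments were done 2 weeks after poly(I:C) unless another time was named, and none was named for these libraries. Peak lists carry no expression values, so the deleted genes were not checked. Nothing says that the mice of each library came from separate litters or days, and p-values measure the spread between these libraries.

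A merged peak file is named in the labels of replicates 1 and 2 only, so replicates 1 and 2 and replicates 3 and 4 were kept apart as replicate pairs. The lists of replicates 1 and 2 held 86039 to 110055 peaks and those of replicates 3 and 4 held 130610 to 137335. A list gives no read depth, and a site without a peak was only not detected at the depth of that library. The members' loci had 113 to 175 regions with a peak in the libraries of replicates 1 and 2 and 202 to 215 in those of replicates 3 and 4. WT replicate 1 had the fewest, 113. Promoters of all 10 stem and progenitor genes examined, Kit, Flt3 and Gata2 among them, had a peak in all 16 libraries. Ly6g, a granulocyte gene, had none in any list and Alas2, an erythroid gene, had 1 in 1 library, whereas Pax5 and Cd3d of lymphocytes and the 4 endothelial and stromal genes examined had promoter peaks in all 16 libraries. An open promoter alone therefore did not separate these cell types. The part of other cells in the results was not tested.

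Ets factors share a DNA-binding domain that recognizes a GGAA core. Fli1 and Erg are close relatives that blood stem cells need, and they act there beside Gata, Runx and E-box binding factors. Etv6 is a repressor needed by stem cells in the bone marrow, Ets1 is best known in lymphocytes, Elf1 is expressed widely in blood cells, Gabpa encodes the DNA-binding subunit of GABP, and Elk3 belongs to the ternary complex factors that act with serum response factor.

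The reference sequence is shown first for 3 regions that the results turn on, 150 bases either side of the leading summit. Ets1 +10.21 kb is the region whose rank was lower in p300-null cells, Erg +90.97 kb is the strongest region of Erg outside promoters, and Fli1 -14.91 kb is the strongest of Fli1. Capitals mark the Ets string CGGAAG or the related AGGAAG, the Gata string AGATAA, the Runx string TGTGGT and the E-box CAGCTG, read on both strands. The plus strand of mm10 is given at chr9:32706084-32706383 in an intron of Ets1, at chr16:95439240-95439539 in an intron of Erg, and at chr9:32556356-32556655 between genes upstream of Fli1.
Ets1 +10.21 kb: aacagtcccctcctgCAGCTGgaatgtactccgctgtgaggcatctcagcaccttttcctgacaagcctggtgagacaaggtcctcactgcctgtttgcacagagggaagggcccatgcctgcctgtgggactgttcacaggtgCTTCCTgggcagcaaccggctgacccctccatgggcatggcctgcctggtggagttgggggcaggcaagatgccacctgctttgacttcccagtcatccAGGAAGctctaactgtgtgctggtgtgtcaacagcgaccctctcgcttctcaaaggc
Erg +90.97 kb: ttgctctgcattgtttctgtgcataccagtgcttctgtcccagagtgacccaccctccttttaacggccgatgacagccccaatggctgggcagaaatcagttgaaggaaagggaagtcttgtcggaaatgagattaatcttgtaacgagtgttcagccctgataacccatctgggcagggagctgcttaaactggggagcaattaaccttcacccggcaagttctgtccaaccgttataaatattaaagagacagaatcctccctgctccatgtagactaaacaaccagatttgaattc
Fli1 -14.91 kb: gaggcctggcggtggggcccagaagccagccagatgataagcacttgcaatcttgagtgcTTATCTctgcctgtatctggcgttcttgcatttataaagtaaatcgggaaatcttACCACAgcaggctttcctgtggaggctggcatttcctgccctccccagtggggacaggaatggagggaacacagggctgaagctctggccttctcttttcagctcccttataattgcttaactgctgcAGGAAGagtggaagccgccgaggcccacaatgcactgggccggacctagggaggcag
The Ets1 window held 2 Ets strings and 1 E-box, and neither a Gata nor a Runx string. The Fli1 window held 1 Ets, 1 Gata and 1 Runx string. The Erg window held none of the 5 strings. A match describes the letters and is not a site of binding.

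Erg has several annotated starts, and RefSeq (GRCm38.p6) gives 3 promoter windows for it. The 250 bases upstream of each start are shown because a peak covered the start at +71.02 kb in all 16 libraries and neither of the others in any, and in the windows shown the numbers were the same. They are read 5' to 3' on the minus strand, at chr16:95586594-95586843 for the start at -56.23 kb, at chr16:95530366-95530615 for the principal start, and at chr16:95459349-95459598 for the start at +71.02 kb.
Erg start at -56.23 kb: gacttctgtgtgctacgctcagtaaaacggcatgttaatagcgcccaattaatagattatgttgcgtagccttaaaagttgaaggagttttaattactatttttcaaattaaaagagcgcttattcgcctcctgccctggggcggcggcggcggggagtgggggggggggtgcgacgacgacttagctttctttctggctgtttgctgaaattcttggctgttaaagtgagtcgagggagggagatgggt
Erg principal start: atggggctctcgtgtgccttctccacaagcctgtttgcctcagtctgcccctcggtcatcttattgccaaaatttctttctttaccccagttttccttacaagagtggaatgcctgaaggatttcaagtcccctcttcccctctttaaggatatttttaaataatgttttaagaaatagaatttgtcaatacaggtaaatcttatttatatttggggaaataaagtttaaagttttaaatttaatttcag
Erg start at +71.02 kb: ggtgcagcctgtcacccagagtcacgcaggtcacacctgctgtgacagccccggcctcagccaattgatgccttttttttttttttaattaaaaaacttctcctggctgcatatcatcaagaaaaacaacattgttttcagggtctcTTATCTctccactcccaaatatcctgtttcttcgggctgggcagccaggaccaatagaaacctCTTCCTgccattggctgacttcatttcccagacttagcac
The window of the start at +71.02 kb held 1 Ets string and 1 Gata string, and the other windows held none of the 5 strings. Of 32851 RefSeq promoter windows of this length, 29.5% held AGGAAG, 13.6% CGGAAG, 9.99% the Gata string, 14% the Runx string and 13% the E-box.

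The 8 loci were mostly intronic. Of the 456 regions, 303 (66.4%) lay in introns, 81 (17.8%) within 3 kb of an annotated transcript start, 52 (11.4%) between genes and 20 (4.39%) in exons. Among all 296215 regions the intronic share was 38.5% and the promoter share 26.7%. The members' regions were taken from gene bodies and flanks, which favours introns, and these shares were not tested. A peak in all 16 libraries was found for 59 of the members' regions (12.9%), beside 13.3% of all regions, and a peak in a single library for 169 (37.1%), beside 45.6%. Gabpa had the highest share of such constant regions (3 of 11, 27.3%) and Erg the lowest (9 of 94, 9.57%). Fli1 had 12 of 65, Etv6 14 of 131, Elf1 9 of 56, Ets1 4 of 41, Ets2 2 of 14 and Elk3 6 of 44. Of the 59, 29 were intronic, 18 were at promoters, 8 intergenic and 4 exonic. Of the 18 promoter regions, 13 belonged to the member and 5 to another gene.

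**Figure D1:**
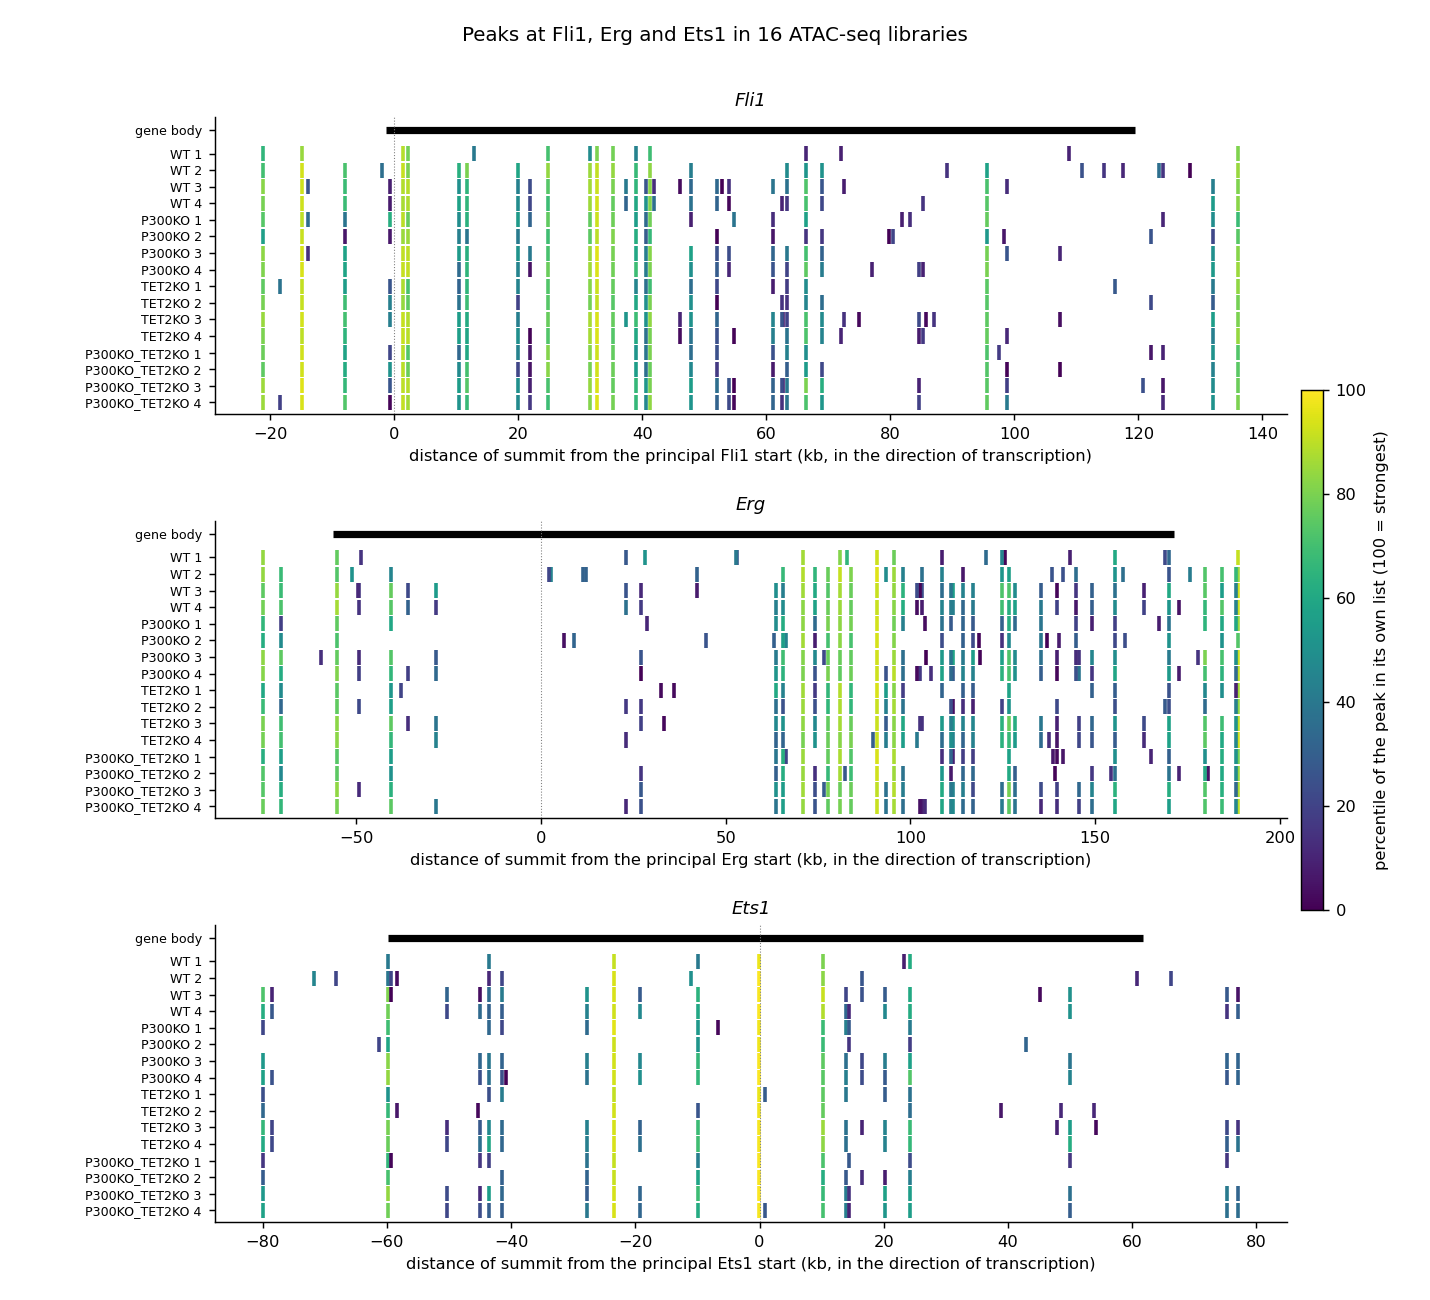
Peaks at Fli1, Erg and Ets1 by library. Each tick is a region with a peak in that library, placed by its distance from the principal transcript start in kb and coloured by the percentile of its strongest peak in that library's own list. The black bar is the gene body and the dotted line the principal start. Columns of ticks that run through all 16 rows are the constant regions, 12 at Fli1, 9 at Erg and 4 at Ets1, and the principal start of Erg has no such column.

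The strength of a region was taken from the authors' -log10 p, as the percentile of its strongest peak within its own list. A value of 100 stands for the strongest peak. Percentiles put the lists on a common scale but do not remove the effect of their length. The promoter of Ets1 was the strongest principal promoter, with a mean percentile of 98.6 over 16 libraries (SD 0.863, range 96.8 to 99.5). Gabpa followed with a mean of 97.1 (SD 1.05), at a region shared with Atp5j on the opposite strand, and Ets2 with 96.7 (SD 1.04). These 3 ranges overlapped, from 94.1 to 99.5. Etv6 had a mean of 94.7 (SD 0.963), Elf1 92.5 (SD 2.13), Fli1 89.1 (SD 2.16) and Elk3 81.8 (SD 4.3). Fli1 (84.3 to 91.3) and Elk3 (74.7 to 86.9) overlapped at their ends. The promoter regions of the members had a median of 85.6 over 18 regions, beside 87.7 over all 20104 promoter regions with a peak in every library.

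Erg stood apart from this order because its principal start was not covered by a peak in any library. The nearest region, Erg +2.14 kb, had a peak in 1 of 16 libraries, at percentile 20.8 of WT replicate 2. The upstream start at -56.23 kb was not covered either, but a region just inside the gene from it (Erg -55.29 kb, chr16:95585028-95586196), whose edge lay 397 bp and whose summit 941 bp from that start, had a peak in all 16 libraries. The internal start was covered in all 16 by Erg +70.95 kb (chr16:95458581-95459810).

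The region beside the upstream start of Erg, Erg -55.29 kb, lay at percentiles 76.0, 73.2, 84.3 and 86.3 in WT replicates 1 to 4 and at 75.6, 71.7, 76.1 and 81.2 in P300KO. It lay at 74.3, 75.6, 82.6 and 82.8 in TET2KO and at 73.5, 74.7, 83.5 and 79.4 in P300KO_TET2KO. Replicates 3 and 4 (76.1 to 86.3) were above replicates 1 and 2 (71.7 to 76.0), while the genotypes overlapped.

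The region at the internal start of Erg, Erg +70.95 kb, lay at 86.3, 88.5, 85.8 and 82.5 in WT and at 82.9, 85.9, 81.3 and 80.3 in P300KO. It lay at 85.8, 84.9, 83.5 and 79.6 in TET2KO and at 84.8, 84.7, 85.6 and 84.1 in P300KO_TET2KO. It ranked above Erg -55.29 kb in 8 of 8 libraries of replicates 1 and 2, by a median of 10.8 points, and in 5 of 8 libraries of replicates 3 and 4, by a median of 1.21 points. For the effect of p300 loss, limma gave -2.42 points (SE 1.6, adjusted p = 0.56) at Erg -55.29 kb and -0.915 points (SE 1.2, adjusted p = 0.78) at Erg +70.95 kb.

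**Figure D2:**
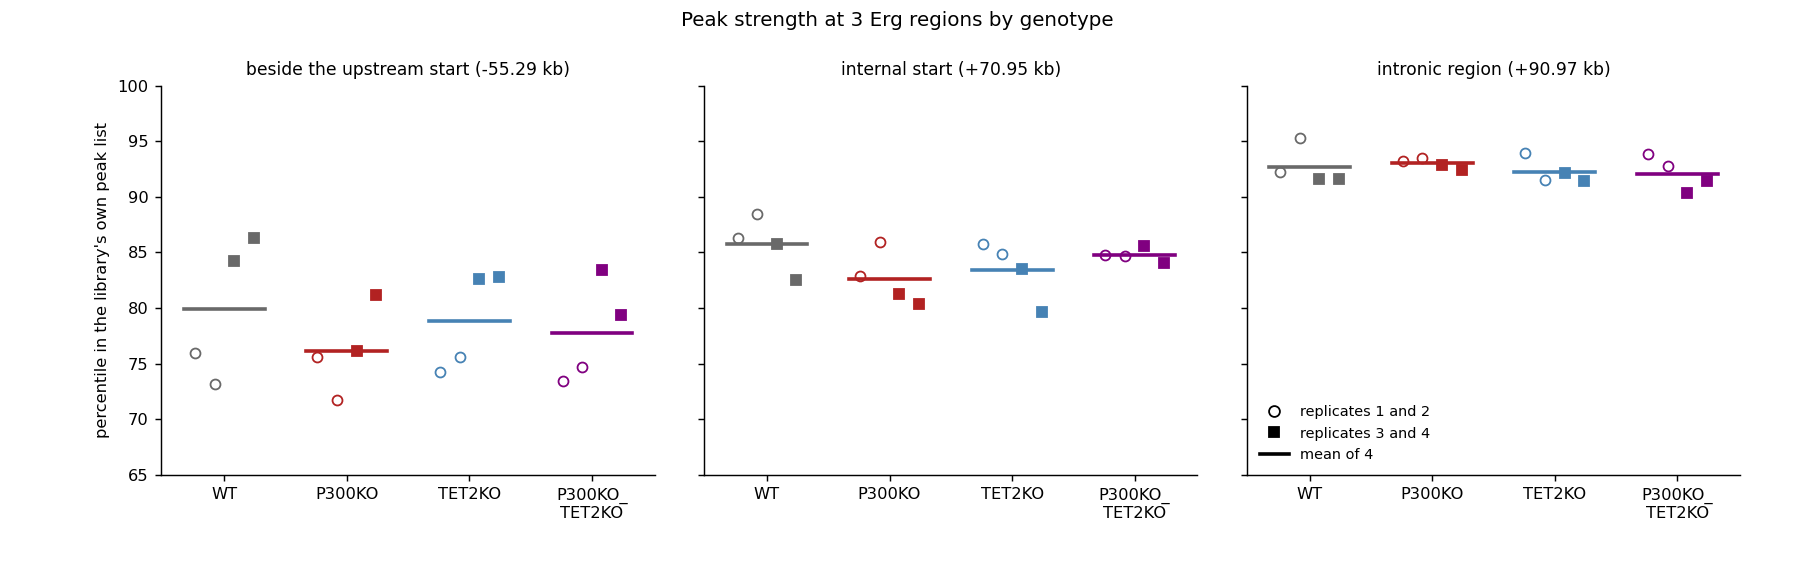
Percentile of 3 Erg regions in each library, by genotype. Open circles are replicates 1 and 2, filled squares replicates 3 and 4, and the line is the mean of the 4 libraries. At the region beside the upstream start the squares lie above the circles in every genotype, and the intronic region stays between 90.4 and 95.3.

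Outside promoters, the strongest region exceeded the principal promoter in mean percentile at Elk3 (93.2 against 81.8) and Fli1 (92.0 against 89.1). At Ets2 and Elf1 its mean was lower but the ranges overlapped. At Ets1, Etv6 and Gabpa its range lay wholly below that of the promoter. The ranges were 90.8 to 95.6 against 96.8 to 99.5 at Ets1 and 87.7 to 92.3 against 92.5 to 96.2 at Etv6. At Gabpa they were 64.1 to 85.9 against 94.6 to 98.4. Erg had no peak over its principal start to compare. Ets2 +26.89 kb, downstream of the gene, had a mean percentile of 95.1 (SD 1.63), Elk3 +49.70 kb, in an intron, 93.2 (SD 1.72), and Ets1 -23.35 kb, in an intron of the longer Ets1 transcripts, 93.0 (SD 1.26). Erg +90.97 kb had 92.5 (SD 1.25) and Fli1 -14.91 kb 92.0 (SD 2.48). Etv6 +29.53 kb, Etv6 +154.28 kb and Elf1 +40.76 kb, each in an intron of its gene, lay at 89.9 (SD 1.17), 89.2 (SD 1.84) and 89.7 (SD 1.82). Elf1 +49.13 kb had 85.9 (SD 3.04) and Elk3 +16.13 kb 80.0 (SD 7.68).

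Erg +188.71 kb, in the flank of Erg and in an intron of Gm31641, had a mean percentile of 87.2 (SD 5.39), and Fli1 +136.13 kb, beyond the end of Fli1, had 79.3 (SD 4.8). Gabpa was the member without a strong region outside promoters, with 77.3 (SD 5.87) at Gabpa -20.20 kb, in Jam2, and 76.1 (SD 8.13) at Gabpa +44.44 kb. At Ets2 the next region, Ets2 +34.18 kb, had a peak in 10 of 16 libraries only, with a mean of 22.4 in those. A further strong region inside Fli1, Fli1 +32.72 kb (mean 92.0, SD 3.54), is counted as a promoter because the start of the antisense transcript Gm27201 lies within 3 kb. The 41 constant regions of the members outside promoters had a median percentile of 77.8, beside 75.6 over all 19206.

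Erg +90.97 kb (chr16:95438853-95440209) lay at 92.2, 95.3, 91.6 and 91.6 in WT, at 93.3, 93.5, 92.9 and 92.4 in P300KO, at 94.0, 91.5, 92.2 and 91.4 in TET2KO, and at 93.8, 92.7, 90.4 and 91.4 in P300KO_TET2KO. All 4 genotypes overlapped there. Fli1 -14.91 kb (chr9:32555997-32556805) lay at 84.5, 93.3, 92.3 and 92.6 in WT and at 90.1, 91.8, 94.1 and 93.8 in P300KO. It lay at 90.8, 91.1, 93.2 and 90.2 in TET2KO and at 92.8, 92.7, 95.2 and 94.1 in P300KO_TET2KO. WT replicate 1 was the lowest of the 16 at this region. The difference for p300 loss was 0.0805 points at Erg +90.97 kb (SE 0.55, adjusted p = 0.97) and 2.07 points at Fli1 -14.91 kb (SE 0.93, adjusted p = 0.35), so neither passed the test. Without WT replicate 1 the difference at Fli1 -14.91 kb was 1.16 points (adjusted p = 0.388). With replicates 3 and 4 alone, Fli1 -14.91 kb passed it, as did 2584 of all 39310 regions (6.57%).

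The rank of a region was compared between genotypes with limma over all 39310 regions that had a peak in every library, with the replicate pair as a covariate and adjustment over all regions. The effect of p300 loss is the mean of P300KO_TET2KO minus TET2KO and P300KO minus WT. For it, 217 regions were lower (0.552% of those tested) and 43 higher (0.109%), and among the 59 members' regions 1 was lower and 0 were higher. The one was Ets1 +10.21 kb, an intronic region at chr9:32705637-32706690, whose sequence is shown above.

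Ets1 +10.21 kb lay at percentiles 80.2, 82.8, 91.4 and 88.4 in WT replicates 1 to 4 and at 68.3, 67.8, 75.3 and 74.0 in P300KO. It lay at 75.2, 76.3, 84.9 and 82.9 in TET2KO and at 71.7, 62.1, 67.4 and 70.5 in P300KO_TET2KO. Without p300 the highest library stood at 75.3 and with p300 the lowest stood at 75.2, so the 8 p300-null and 8 p300-intact libraries touched when the pairs were pooled. Within each replicate pair and Tet2 background, both p300-null libraries were below both intact ones in all 4 combinations, which held for 1.25% of all regions tested.

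The region was 13.2 points lower in p300-null libraries (mean 69.6, SD 4.16, n = 8) than in p300-intact libraries (mean 82.8, SD 5.58, n = 8), with an SE of 1.9 and an adjusted p = 0.0038 by limma. In ranks, its peak stood between 11232 and 22839 from the top in the lists with p300 and between 27494 and 42930 in those without. Such ranks depend on the length of a list, and the percentiles of the same peaks touched. The differences within a combination were -13.5 and -15.3 points on the Tet2-intact background in replicates 1 and 2 and in replicates 3 and 4, and -8.85 and -15 points on the Tet2-null background. Neither background alone passed the test, with -14.4 points for P300KO minus WT (SE 2.69, adjusted p = 0.074) and -11.9 points for P300KO_TET2KO minus TET2KO (SE 2.69, adjusted p = 0.20). The interaction of both losses was 2.47 points (SE 3.8, adjusted p = 0.95). Tet2 loss came to -4.65 points (SE 1.9, adjusted p = 0.41). The call was lost without the replicate pair as a covariate (adjusted p = 0.145), with peaks of -log10 q of at least 2 alone (adjusted p = 0.523) and with replicates 1 and 2 alone (-11.2 points, adjusted p = 0.775). Without WT replicate 1 the difference was -13.6 points (adjusted p = 0.00242).

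The fold enrichment of the same peak over the background of its own library, which is not on one scale between lists, did not follow the ranks in every combination. It was 4.0, 6.62, 14.5 and 12.3 in WT replicates 1 to 4, 5.78, 4.83, 9.26 and 8.58 in P300KO, 7.07, 6.82, 10.6 and 11.4 in TET2KO, and 8.58, 7.56, 9.59 and 9.53 in P300KO_TET2KO. In replicates 3 and 4 both p300-null libraries were below both intact ones on either Tet2 background. In replicates 1 and 2 of the Tet2-null background both p300-null libraries were above both intact ones, and WT replicate 1 was the lowest of all 16. With regions ranked by fold enrichment within each list, the difference was -11.57 points (adjusted p = 0.0333 by limma).

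The other strong regions of Ets1 did not pass the test. The Ets1 promoter lay at 97.1, 99.4, 99.0 and 99.5 in WT and at 98.0, 97.5, 99.1 and 99.4 in P300KO. It lay at 96.8, 97.9, 98.8 and 98.7 in TET2KO and at 99.0, 99.0, 99.3 and 98.5 in P300KO_TET2KO. All genotypes overlapped, and the effect of p300 loss was 0.318 points (SE 0.33, adjusted p = 0.72). At Ets1 -23.35 kb the effect was 0.151 points (SE 0.62, adjusted p = 0.94). Ets1 -59.87 kb, at the start of the longer transcripts, varied most among the 4 (mean 69.2, SD 14.7), with replicates 1 and 2 at 39.4 to 70.9 and replicates 3 and 4 at 77.0 to 84.0. Its p300 effect was 10.1 points (SE 3.6, adjusted p = 0.23).

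**Figure D3:**
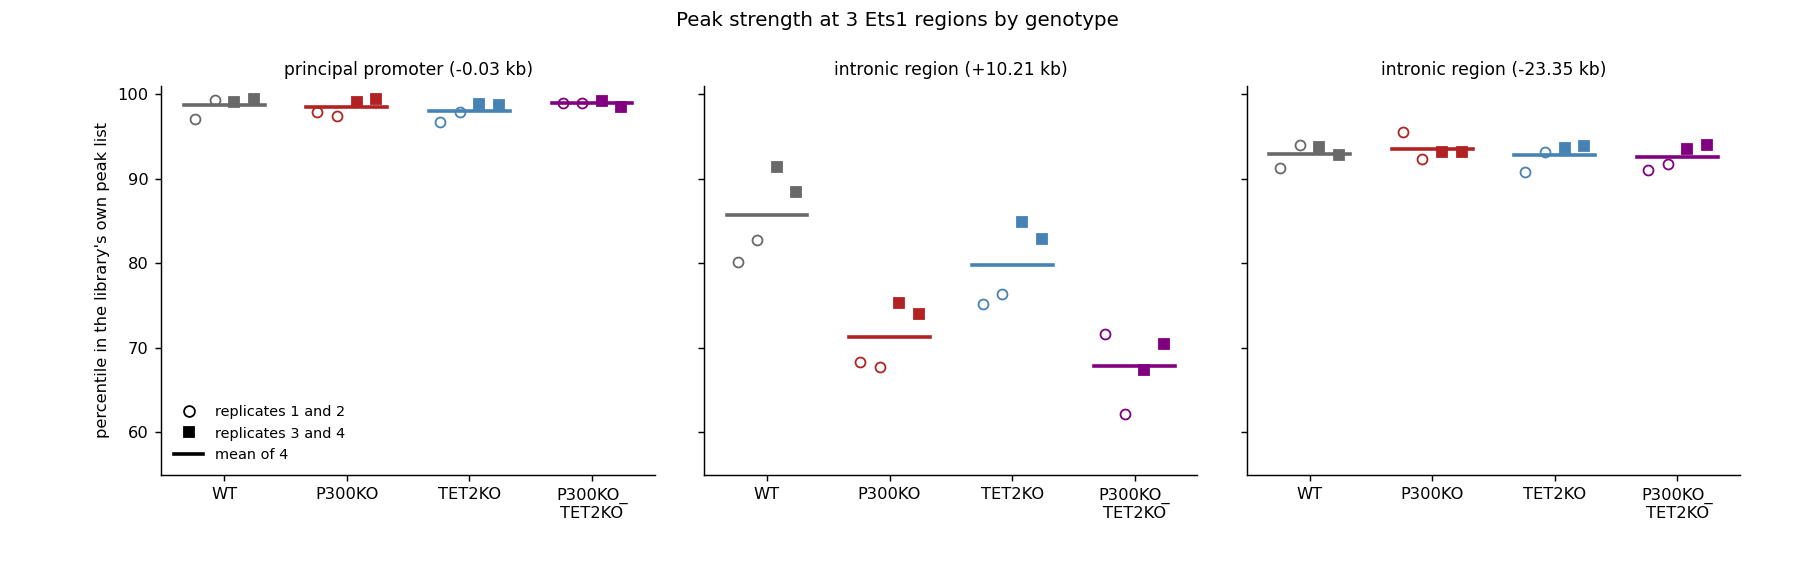
Percentile of 3 Ets1 regions in each library, by genotype. Open circles are replicates 1 and 2, filled squares replicates 3 and 4, and the line is the mean of the 4 libraries. At Ets1 +10.21 kb the p300-null libraries lie between 62.1 and 75.3 and the intact ones between 75.2 and 91.4, while the promoter and Ets1 -23.35 kb stay at 90.8 or higher.

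For the members as a whole the p300 effect was centred near 0. It was positive at 32 of 59 regions and negative at 27, with a median of 0.108 points, beside 0.0194 over all regions. At an unadjusted p under 0.05 there were 11 members' regions for p300 loss, 3 higher and 8 lower, and the share over all regions was 12.8%. After Ets1 +10.21 kb the smallest p was at Erg +80.88 kb, in an intron near the internal start, with -5.05 points (SE 1.5, adjusted p = 0.15 by limma). It lay at 81.4, 91.2, 86.6 and 85.1 in WT, 83.2, 82.7, 77.1 and 75.4 in P300KO, 88.5, 87.6, 86.6 and 82.3 in TET2KO, and 87.2, 86.4, 77.4 and 79.3 in P300KO_TET2KO, and WT replicate 1 was below both P300KO libraries of its pair. Without WT replicate 1 it passed the test (-6.34 points, adjusted p = 0.0131), as it did with replicates 3 and 4 alone (-7.8 points, adjusted p = 0.00804). Its window held 4 AGGAAG strings, as many as any member's window. The promoters of Gabpa (-0.787 points, SE 0.36, adjusted p = 0.36) and Elk3 (-3.95 points, SE 1.8, adjusted p = 0.35) were among the 10 regions with an unadjusted p under 0.05 that missed the adjusted test. The largest positive value, 13.2 points at Elf1 +81.81 kb (SE 7.4, adjusted p = 0.48), came with WT replicate 1 at percentile 0.819 and the other libraries at 61.4 to 85.3.

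**Figure D4:**
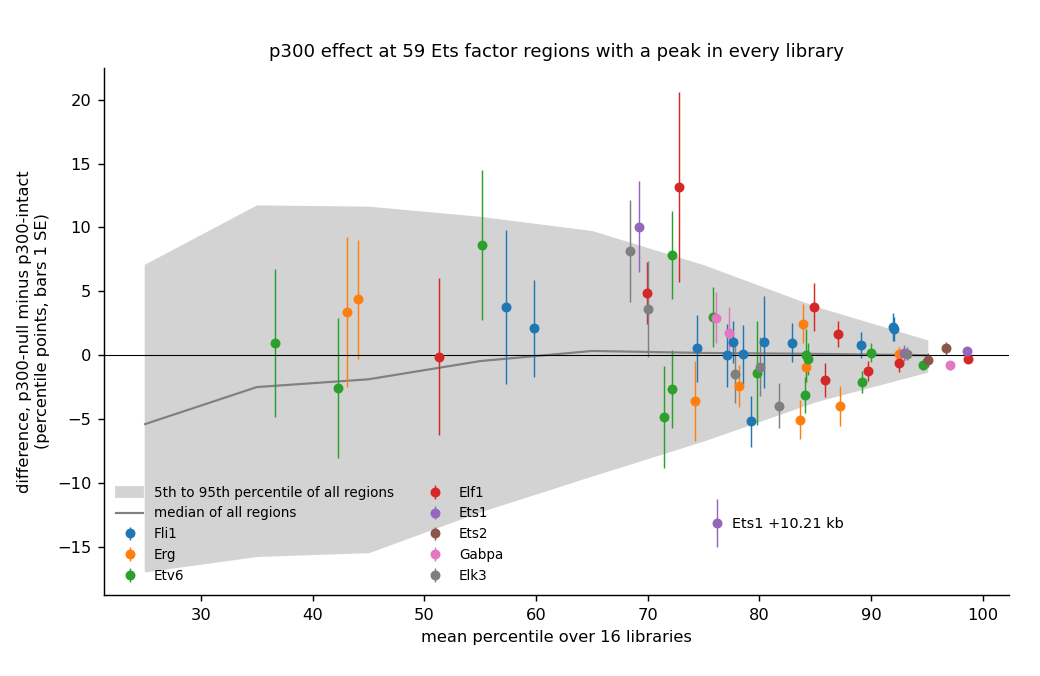
Difference in percentile points between p300-null and p300-intact libraries for the 59 constant regions, against their mean percentile over 16 libraries. Points are coloured by gene with bars of 1 SE, the grey band spans the 5th to 95th percentile of all 39310 regions in bins of mean percentile, and the grey line is their median. Ets1 +10.21 kb, at -13.2 points, lies below the band.

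The contrasts share libraries and are not independent. For P300KO_TET2KO against TET2KO, the comparison the study was about, 0 of 59 regions passed the adjusted test by limma and 4 had an unadjusted p under 0.05, while 27 of all regions passed (0.0687%) and 5.57% had such a p. The median difference was 0.792 points over the members and 0.29 over all regions. For P300KO against WT, 0 passed and 11 had an unadjusted p under 0.05, beside 4 regions called (0.0102%) and 13.2% of all. For TET2KO against WT the numbers were 0 and 4, beside 0 called and 8.75%. For P300KO_TET2KO against P300KO they were 0 and 2, beside 41 called (0.104%) and 7.04%. For Tet2 loss over both p300 backgrounds they were 0 and 6, beside 97 called (0.247%) and 10.7%. For the interaction they were 0 and 3, beside 0 called and 4.59%.

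The number of accessible regions at a locus was counted in every library. Fli1 had 15, 28, 34 and 30 regions in WT replicates 1 to 4, 28, 27, 29 and 29 in P300KO, 26, 26, 35 and 31 in TET2KO, and 28, 28, 34 and 33 in P300KO_TET2KO. Erg had 21, 36, 43 and 41 in WT, 33, 31, 41 and 42 in P300KO, 29, 31, 40 and 39 in TET2KO, and 29, 33, 36 and 39 in P300KO_TET2KO. At both genes replicates 3 and 4 had more regions than replicates 1 and 2 in every genotype, and the genotypes overlapped. WT replicate 1 was the lowest library at both, and without it the WT mean rose from 26.75 to 30.7 at Fli1 and from 35.25 to 40 at Erg.

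Etv6 had 48 ± 16.5 regions in WT (SD, n = 4), 52.8 ± 12.1 in P300KO, 52.5 ± 11.8 in TET2KO and 56.8 ± 6.7 in P300KO_TET2KO. In that order its means were 34, 43.5, 42.5 and 52.5 in replicates 1 and 2. In replicates 3 and 4 they were 62, 62, 62.5 and 61. Without WT replicate 1 the WT mean of Etv6 was 54. Ets1 had 16 ± 6.33, 15 ± 4.97, 16 ± 5.35 and 16.2 ± 3.86 in the same order, and Elf1 23.8 ± 5.56, 22.5 ± 6.56, 23.2 ± 6.08 and 26.8 ± 2.63. Ets2 was the member with more regions in replicates 1 and 2 of WT (8 and 5) than in replicates 3 and 4 (3 and 4), and in the other genotypes it had 2 to 5. By a two-sided exact permutation test over libraries, the smallest unadjusted p among the 8 members and 6 contrasts was 0.2, for Gabpa in TET2KO (mean 4) against WT (mean 5.25), and every adjusted p was 1. Among 20221 protein-coding genes 0 passed the adjusted test in any of the 6 contrasts (0% called), and 58 to 327 genes per contrast had an unadjusted p under 0.05. With 4 libraries against 4 the smallest p is 0.0286. Between 2 genotypes only 58 to 111 genes had an unadjusted p under 0.05, too few for any to pass after adjustment. For P300KO_TET2KO against TET2KO the differences ran from -0.5 regions at Erg (p = 0.943) to 4.25 at Etv6 (p = 0.629), by the same exact test. This test did not hold the replicate pair fixed, although the counts differed between the pairs. With labels permuted within replicate pairs, the smallest p among the members was 0.111, again for Gabpa in TET2KO against WT and also for Gabpa with Tet2 loss, by exact permutation, and every adjusted p was again 1. Over all genes 1029 (5.09%) then had an unadjusted p under 0.05 for p300 loss and 950 (4.7%) for Tet2 loss, in place of 290 and 327, and 0 passed the adjusted test. Between 2 genotypes the smallest p within pairs is 0.0556, so that 0 genes could fall under 0.05.

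**Figure D5:**
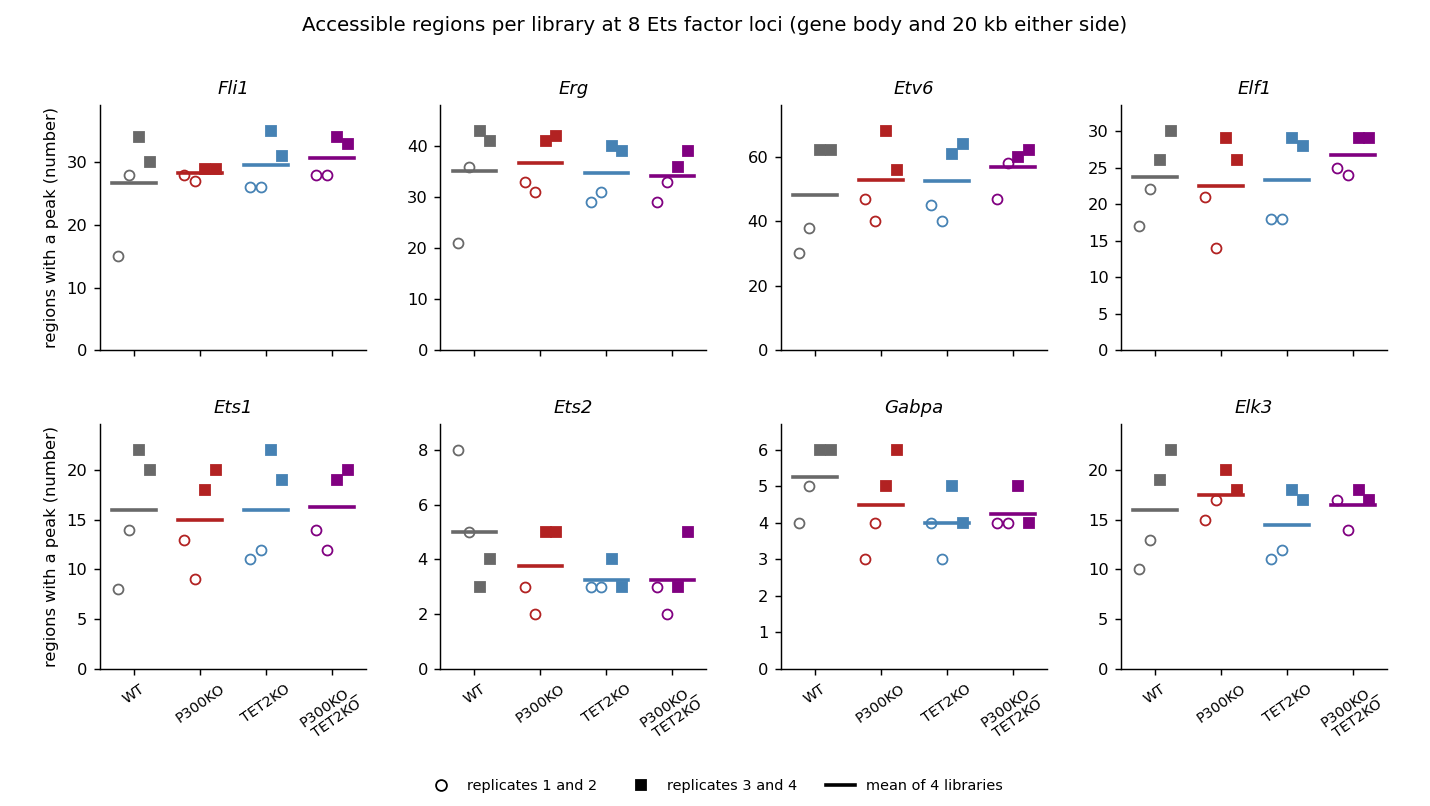
Number of regions with a peak at each of the 8 loci, by genotype. Open circles are libraries of replicates 1 and 2, filled squares libraries of replicates 3 and 4, and lines are means of 4 libraries. At Fli1 and Erg the squares lie above the circles in every genotype, and the genotypes overlap at all 8 genes.

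A stricter description asked for a peak in 4 of 4 libraries of a genotype and in 0 of 4 of the other. In P300KO_TET2KO against TET2KO the gain was 1 of the members' regions, Elf1 +51.36 kb (chr14:79532251-79532683, intronic), and the loss was 0. Of all regions with a peak in either genotype, 0.0938% were gained and 0.0201% lost in that comparison. Elf1 +51.36 kb also had a peak in 2 WT libraries and 1 P300KO library, at percentiles from 26.9 to 65.7, so it was not particular to the double mutant. In P300KO_TET2KO against P300KO, 1 region was lost, Erg +144.80 kb (chr16:95385408-95385853), beside 0.0469% of all. That intronic Erg region had a peak in 3 of 4 WT and 4 of 4 P300KO libraries, at percentiles from 6.17 to 35.7, and in 0 of 8 Tet2-null libraries. The gain was 0, beside 0.0994% of all. In P300KO against WT 0 of the members' regions were gained or lost, beside 0.0154% and 0.0122% of all, and in TET2KO against WT likewise, beside 0.017% and 0.00849%. No test was run on either region.

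Peaks were also compared between the replicate pairs. A peak in all 8 libraries of replicates 3 and 4 and in none of replicates 1 and 2 was found at 3 of the 456 regions, Etv6 +12.47 kb, Ets1 -19.25 kb and Ets1 +77.07 kb, beside 0.913% of all regions, and the opposite at 0, beside 0.00135%. Among the 59 constant regions, all 8 libraries of replicates 3 and 4 ranked above all 8 of replicates 1 and 2 at 12 (20.3%), beside 19.6% of all regions, and below them at 0, beside 0.206%. What differed between the pairs is not given in the sources used here.

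The Ets string AGGAAG was in 27 of 41 windows of 300 bp at constant regions outside promoters (65.9%), beside 58.5% of all such windows, and the CGGAAG form in 2 (4.88%), beside 10.5%. The Runx string was in 17 (41.5%), beside 36%, the E-box in 9 (22%), beside 22.6%, and the Gata string in 5 (12.2%), beside 15.4%. At the 18 promoter regions AGGAAG was in 11 (61.1%), beside 40.6% of all promoter windows, CGGAAG in 3 (16.7%), beside 24.8%, the Gata string in 3 (16.7%), beside 7.07%, the Runx string in 3 (16.7%), beside 18.5%, and the E-box in 1 (5.56%), beside 18.8%. The Gabpa promoter held 2 strings of each Ets form, and the windows at the summits of Fli1 +1.36 kb, whose region spans the principal Fli1 start but whose window does not reach it, and of Elf1 -0.09 kb held none of the 5 strings. These shares describe 59 windows and were not tested.

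The loci of 18 other Ets genes, Spi1 and Etv2 among them, held 319 regions, 65 of them with a peak in every library. By limma 0 of these 65 passed the adjusted test in any of the 7 contrasts, and the smallest adjusted p was 0.219, for P300KO against WT. For p300 loss their median difference was -0.17 points and their smallest adjusted p 0.245.

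The genes whose region counts moved most like those of Fli1 over the 16 libraries, after the mean of each replicate pair was subtracted, were 1700023F06Rik (Spearman's rho 0.874), L1cam (0.848) and Avpr2 (0.848), among 14228 genes with a median of 0.115. For Erg they were Npc1 (0.875), Epha1 (0.813) and Tmem108 (0.811), among 14229 genes with a median of 0.0833. The points share libraries and list length, and the values are a description. L1cam and Avpr2 both lie on chromosome X, and a sharing of regions between such genes was not excluded.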

How the data were processed

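ATAC-seq was measured in 16 libraries of sorted mouse HSPCs, 4 for each of 4 genotypes. Per the labels and the study's methods, the authors trimmed reads with cutadapt 1.9.1, aligned them to mm10 with Bowtie2 2.2.6, removed duplicates, shifted reads for the transposase and called peaks for each library with MACS2 2.1.0. Each deposited list has a line per summit, with its fold enrichment, a ratio to the background of its own library, and the authors' -log10 p and -log10 q. They hold no counts, so no count model was fitted.

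Summits of 1 interval were joined, peaks were merged over the 16 lists, and regions were placed on GENCODE M21 (promoter within 3 kb of a start). The smallest peaks of a list depend on its depth, which the lists do not give, and ranks remove the scale of a list but not its length. The principal transcript was the one with the best-ranked principal tag in the annotation. Ties went to the better transcript support level and then to the most upstream start. Regions with a peak in 16 of 16 libraries were ranked within their list by -log10 p and fitted with limma 3.58.1 in R 4.3.3, with a variance trend, the replicate pair as covariate and Benjamini-Hochberg adjustment over all regions. Locus counts were compared by two-sided exact permutation (70 arrangements, or 4900 for effects over 16 libraries), adjusted over all protein-coding genes. The threshold was 0.05. Both scripts were tested on simulated data. Work was done in Python with numpy, pandas, scipy and pysam.

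All 8 members were named, with the region at the principal start, the 2 strongest regions outside promoters, every region called by limma, and the 3 genes with the most similar locus counts. Erg +70.95 kb, Erg -55.29 kb, Erg +80.88 kb, Fli1 +32.72 kb, Ets1 -59.87 kb, Elf1 +81.81 kb and the gained or lost regions were named after their values were seen. Members and lists were chosen with earlier results of these data known. RefSeq promoter windows were found for 6 of the 8 members.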

Additional observations from a re-analysis of the deposited data

Results flagged for a closer look

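In groups of 4 libraries, 120 sets of values were screened for a library that stood apart from the other 3 by Dixon's criterion, and 7 were found. Chance gives about 1 in 20. Fli1 -14.91 kb lay at percentile 84.5 in WT replicate 1 and at 92.3 to 93.3 in the other WT libraries. Elk3 +16.13 kb lay at 66.4 in P300KO replicate 1, with the others at 82.8 to 84.2. Elf1 +40.76 kb lay at 86.3 in P300KO replicate 3, with the others at 90.3 to 91.1, and Elf1 +49.13 kb at 83.5 in TET2KO replicate 2, with the others at 88.1 to 88.9. The Ets2 promoter lay at 94.1 in TET2KO replicate 2, with the others at 96.6 to 96.9. The last pair were counts that differed by 1 region, with 4 regions at Ets2 in TET2KO replicate 3 and 3 in the others, and 5 regions at Gabpa in P300KO_TET2KO replicate 3 and 4 in the others.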

How the results depend on the processing

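The difference at Ets1 +10.21 kb for p300 loss kept its direction under all 28 alternatives run. It missed the threshold with peaks of -log10 q of at least 2 (-11.2 points, adjusted p = 0.523), with no covariate (-13.15 points, adjusted p = 0.145) and with replicates 1 and 2 alone (-11.16 points, adjusted p = 0.775), so that the number of members' regions called fell to 0 under each of these, beside 0.0189%, 0% and 0% of all regions tested. The covariate alternative differs from the reported fit in that term alone, and for the other cases the cause was not tested. With replicates 3 and 4 alone the number was 5 of 59, beside 6.57% of all regions, and over the fits that left out 1 library it ran from 1 to 2 (2 without WT replicate 1, Ets1 +10.21 kb and Erg +80.88 kb, beside 1.43% of all) and the difference from -14.41 to -12.49 points. For P300KO against WT the number rose from 0 to 1 with percentiles within shared regions, the log2 rank, the normal score, the strongest 50000 peaks or no variance trend, each time Ets1 +10.21 kb, beside 0.142% to 0.931% of all regions, and to 2 with replicates 3 and 4 alone, beside 1.52%. For P300KO_TET2KO against TET2KO it rose from 0 to 1 with replicates 3 and 4 alone, beside 1.42%. Leaving out 1 library called 0 of the members' regions in each contrast other than p300 loss. The same fits called 9 to 52 of all 39310 regions for P300KO_TET2KO against TET2KO, 1 to 2 for P300KO against WT, 21 to 108 for P300KO_TET2KO against P300KO, 49 to 169 for Tet2 loss, and 0 to 5 for TET2KO against WT and for the interaction. For p300 loss these fits called from 91 (without TET2KO replicate 3) to 564 (without WT replicate 1) of all regions.

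With the replicate block, replicate number in place of the pair, Ets1 +10.21 kb had an adjusted p = 0.0122 at -13.15 points, and no count of members' regions changed. Deviations of same-numbered libraries from their genotype means correlated at 0.135 to 0.565, but only 7 of 16 libraries correlated best with their own number, and within replicate pairs the correlations were -0.125 to 0.0419, so the numbers shared only the pair. No member's region count passed the adjusted test under any alternative, the replicate block and the fits without 1 library (0 to 0) included. For P300KO_TET2KO against TET2KO the block gave p = 0.25 for Fli1 by exact permutation, where 0.125 is the smallest it can give. Each replicate pair alone was given as values with no test.

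Gained regions in P300KO_TET2KO against TET2KO went from 1 to 0 with the strongest 50000 peaks, beside 0.234% of all regions, and to 10 (3.12%) with 3 of 4 against 1 of 4 libraries, beside 1.86% (1 to 4 without 1 library, 4 without P300KO_TET2KO replicate 2), and lost regions stayed at 0 without 1 library. In P300KO against WT, gained regions went from 0 to 1 with -log10 q of at least 2, beside 0.0181%, and to 4 (1.02%) with the looser rule, beside 0.871%, and lost ones from 0 to 3 (0.765%) with it, beside 0.687%. In TET2KO against WT the looser rule gave 4 (1.06%) and 3 (0.796%), beside 0.769% and 0.669%. In each of these the count was 0 to 1 without 1 library. In P300KO_TET2KO against P300KO, gained regions went from 0 to 1 with the strongest 50000 peaks, beside 0.209%, and to 10 (2.97%) with the looser rule, beside 1.7% (0 to 2 without 1 library), and lost ones from 1 to 0, beside 0.175%, and to 3 (0.89%), beside 0.885% (1 to 2 without 1 library). A promoter limit of 1 kb gave 9.43% promoter and 73.2% intronic regions, and a 5 kb flank gave 75.1% intronic. In windows of 75 bp either side the shares over all regions were lower for each string. The members' E-box share outside promoters was then 7.32%, beside 13.6% of all such windows, that of AGGAAG 58.5% beside 44.6%, and that of AGGAAG at promoters 38.9% beside 27.4%.

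Peak lists limit these values. Depth is unknown, an absent peak is one not detected, and ranks compare the order within a list and not signal.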

Other observations

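With a peak in at least 6 of 8 libraries of one Tet2 state and at most 2 of 8 of the other, Erg +93.47 kb was gained in Tet2-null cells (1 of 456 regions, 0.219%, beside 0.169% of all regions), and Etv6 +235.79 kb and Erg +144.80 kb were lost (2 of 456, 0.439%, beside 0.104%). The same rule found 0 gained and 0 lost for p300, beside 0.209% and 0.0679% of all regions. Counts this small do not separate the members from the other regions, and the difference between Tet2 and p300 was not tested. Erg +93.47 kb, intronic and close to Erg +90.97 kb, lay at percentiles of 25.8 to 54.9 in its 8 libraries. These regions were chosen after their values were seen, and no test was run on them.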
